A study of Mus musculus with 203 samples.

Results

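The somatostatin receptor genes Sstr1, Sstr2, Sstr3, Sstr4 and Sstr5 were described in single neurons of the mouse nucleus ambiguus (Amb), the medullary nucleus that holds parasympathetic neurons of the heart and motor neurons of the larynx. The 5 genes were taken by name from a count table of 24029 genes, and all 5 had reads in all 3 neuron types. The table holds 203 neurons from wild type C57BL/6 mice, of the substrain C57BL/6NCrl by the study's methods. The fluorescent tracer cholera toxin B was injected at postnatal day 1 into the pericardial space, for 151 cardiac neurons, or into the cricothyroid muscle of the larynx, for 52 laryngeal neurons (Larynx). Labeled neurons were aspirated from brainstem slices at postnatal days 2 to 4 and sequenced by Smart-seq2, in which the cDNA of each neuron is amplified along its full length. The deposited annotation divides the cardiac neurons into 53 ACP and 98 ACV neurons, types that the study defined by clustering these same counts. The neurons are newborn, and a tracer placed in the pericardial space labels axons by where they end rather than by a gene.

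Somatostatin receptors are G protein-coupled receptors for the inhibitory neuropeptides somatostatin and cortistatin. They signal through Gi/o proteins, which lower cAMP by inhibiting adenylyl cyclase, open inwardly rectifying potassium (GIRK) channels and close presynaptic calcium channels, so that somatostatin usually quiets a neuron. Sstr2, Sstr3 and Sstr5 form one subfamily, which binds octreotide-like analogs, and Sstr1 and Sstr4 form the other.

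By the GENCODE vM21 annotation of GRCm38, Sstr1 lies on the plus strand at chr12:58211772-58214444, Sstr2 on the plus strand at chr11:113619342-113626028, Sstr3 on the minus strand at chr15:78537008-78544685, Sstr4 on the plus strand at chr2:148395344-148396767 and Sstr5 on the minus strand at chr17:25489875-25497288. No exon of the 5 genes overlapped an exon of another gene, and none of their exonic stretches of 50 bases occurred in another gene, so reads of that length can be told apart. Sstr2, the receptor with the highest mean level per kilobase in ACV neurons, is shown by its upstream sequence from RefSeq (GRCm38.p6, chr11:113619077-113619326, plus strand, 250 bases ending at the RefSeq transcript start). The capitals mark TGACGTCA, the palindrome bound by the cAMP-response factor CREB, which ends 50 bases before that start.

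Sstr2 upstream: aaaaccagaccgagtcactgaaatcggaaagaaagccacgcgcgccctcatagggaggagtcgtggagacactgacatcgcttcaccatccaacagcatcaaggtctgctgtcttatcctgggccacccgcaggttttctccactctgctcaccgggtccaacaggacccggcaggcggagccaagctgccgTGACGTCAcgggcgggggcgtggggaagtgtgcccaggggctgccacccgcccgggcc

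The same 8 letters, which read alike on both strands, occurred in 508 of the 32851 upstream windows of this length, or 1.55%, and not in the windows of Sstr3 and Sstr4. The motif was looked for after the sequence had been read, and a match in letters does not show that a factor binds. The sequences of Sstr1 and Sstr5 were not analysed here.

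Levels are given as counts per 1000000 reads outside Rn45s (CPM), since this ribosomal RNA locus took a mean of 37.0% ± 12.9 (SD over neurons) of the reads of ACP neurons, 38.5% ± 14.9 of ACV neurons and 58.2% ± 15.7 of Larynx neurons. Total counts ran from 542162 to 3292763 per neuron. The median count outside Rn45s was 1115375 in ACP, 1120512 in ACV and 560892 in Larynx neurons, so 1 read was worth about 0.897, 0.892 and 1.78 CPM in a neuron of median depth. The labels do not name the mouse of each neuron. Each type was therefore taken as 1 sample, no difference between types was tested, and intervals on shares (exact binomial, 95%) and on summed reads (exact Poisson, 95%) cover counting error only, without the spread between mice or the PCR duplicates that reads without molecular identifiers hold. An SD is the spread between neurons of a type. A ratio was counted as changed where mean levels differed at least 2-fold, among genes with a read in 10% or more of the neurons of one or both types.

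The label of the neurons was checked against motor neuron markers. Slc18a3, the vesicular acetylcholine transporter, was detected in all 203 neurons, and Chat, the acetylcholine-synthesizing enzyme, in all ACP and ACV neurons and 46 of 52 Larynx neurons. The ACV markers Ghsr, the ghrelin receptor, and Htr3b, a serotonin receptor subunit, had reads in 65 and 49 of the 98 ACV neurons. Both had reads in 0 of 53 ACP neurons, for which the exact binomial interval runs up to 6.72%. Ghsr and Htr3b had reads in 11 and 5 of 52 Larynx neurons. Bche and Hoxa5, also ACV markers, had reads in 88 and 94 ACV neurons. They were also read in 23 and 20 ACP and in 5 and 19 Larynx neurons. The ACP markers Calb1 and Pappa2 had reads in 77.4% and 94.3% of ACP and 44.9% and 5.10% of ACV neurons. ACP and ACV were clustered on these same counts, so these values are a description. Reads of glial genes were present in all types. The summed level of 7 astrocyte markers had a median of 1177 CPM in ACP, 1024 CPM in ACV and 1206 CPM in Larynx neurons, with highest values of 8894, 30450 and 14620 CPM. Apoe, the glial gene by which the study removed neurons with over 1800 counts, exceeded that count in 11 ACP, 28 ACV and 0 Larynx neurons of the deposited table. A list of 7 markers of glutamatergic, GABAergic and glycinergic neurons had median summed levels of 55.8, 51.1 and 252 CPM. The part of these other cells in the receptor values was not tested. Shares are also given for neurons with at most 900 Apoe counts.

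Sstr2 and Sstr5 had their highest shares and mean levels in ACV neurons. Sstr2, a broadly expressed neuronal receptor of the octreotide-binding subfamily, was detected in 60 of 98 ACV neurons (61.2%, interval 50.9 to 70.9), 9 of 53 ACP neurons (17.0%, 8.07 to 29.8) and 8 of 52 Larynx neurons (15.4%, 6.88 to 28.1). The ACV levels of Sstr2 had a lowest value of 0, a median of 14.6 CPM and a highest value of 305 CPM. In ACP and Larynx neurons the lowest and median values were 0 and the highest were 68.5 and 113 CPM. The groups overlapped, and 29 ACV neurons lay above every ACP neuron and 18 above every Larynx neuron.

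The mean Sstr2 level was 52.8 ± 71.2 CPM (SD, n = 98 neurons) in ACV, 4.81 ± 13.3 CPM (n = 53) in ACP and 4.35 ± 16.9 CPM (n = 52) in Larynx neurons. This is 11.0-fold higher in ACV than in ACP (log2 ratio 3.46) and 12.1-fold higher than in Larynx (log2 ratio 3.60). The log2 ratio of Sstr2 for ACP over Larynx was 0.14, and it turned to −0.28 with pooled reads and −1.76 among neurons with at most 900 Apoe counts. A single Larynx neuron gave 49.9% of the summed Larynx level, and without the highest neuron of each type the log2 ratio of ACV over Larynx was 4.50. The means rest on 7011, 281 and 167 reads (intervals 6848 to 7177, 249 to 316 and 143 to 194).

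Most neurons with Sstr2 held more than a few reads of it. Of the neurons with a read, 53 of 60 in ACV, 7 of 9 in ACP and 5 of 8 in Larynx had at least 5. Among the neurons with a read, the median level was 67.9 CPM in ACV, 29.2 CPM in ACP and 22.7 CPM in Larynx. The 9 ACP neurons held 68.5, 41.1, 31.8, 29.9, 29.2, 28.2, 20.2, 4.58 and 1.25 CPM. The 8 Larynx neurons held 113, 32.1, 27.4, 24.2, 21.2, 3.50, 2.62 and 2.12 CPM. The positive neurons of both types thus mostly stood well above the level of a single read.

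Sstr5, a receptor of the same subfamily best known from pituitary and pancreatic islet cells, was detected in 55 of 98 ACV neurons (56.1%, 45.7 to 66.1), 4 of 53 ACP neurons (7.55%, 2.10 to 18.2) and 12 of 52 Larynx neurons (23.1%, 12.5 to 36.8). The ACV levels of Sstr5 had a lowest value of 0, a median of 7.97 CPM and a highest value of 387 CPM. The 4 ACP neurons with Sstr5 held 178, 57.0, 15.9 and 6.13 CPM. The 12 Larynx neurons with Sstr5 ran from 0.808 to 321 CPM with a median of 51.6 CPM, close to the 55.5 CPM of the ACV neurons with a read. The share of neurons with Sstr5 was thus lower in Larynx than in ACV neurons, while the levels of the neurons with a read covered a similar range.

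The mean Sstr5 level was 45.9 ± 72.8 CPM in ACV, 4.84 ± 25.5 CPM in ACP and 18.1 ± 56.4 CPM in Larynx neurons, from 6014, 290 and 532 reads. ACV stood 9.49-fold above ACP (log2 ratio 3.25) and 2.55-fold above Larynx (1.35), and ACP stood 3.73-fold below Larynx (−1.90). A single ACP neuron gave 69.2% of the summed ACP level of Sstr5. Without it the ACP mean was 1.52 CPM, and without the highest neuron of each type the log2 ratio of ACV over ACP was 4.80.

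Among the 13356 genes compared between ACV and ACP, 8.63% had a mean level at least 2-fold higher in ACV and 9.87% at least 2-fold lower. All 5 receptor genes were past 2-fold, 4 of them higher in ACV. Sstr3 and Sstr5 passed the detection minimum through ACV neurons alone, with reads in 5.66% and 7.55% of ACP neurons. These genes could hardly have been counted as lower in ACV. Sstr1 was under 2-fold (log2 ratio −0.60) among neurons with at most 900 Apoe counts. Ordered by the difference in the share of neurons with a read, ACV minus ACP, Sstr5 (48.6 percentage points) was 8th and Sstr2 (44.2 points) 14th of the 13356 genes, against a median difference of −1.0 point. Both types were clustered on these counts, so these places are a description.

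Sstr1, of the other subfamily, had its highest share and mean level in ACP neurons and its lowest in ACV neurons. It was detected in 27 of 53 ACP neurons (50.9%, 36.8 to 64.9), 32 of 98 ACV neurons (32.7%, 23.5 to 42.9) and 20 of 52 Larynx neurons (38.5%, 25.3 to 53.0), and these intervals overlap. With at least 5 reads required the shares were 37.7%, 20.4% and 15.4%, so that the lowest was then in Larynx neurons. The ACP levels of Sstr1 had a lowest value of 0, a median of 0.572 CPM and a highest value of 463 CPM, while the medians of ACV and Larynx neurons were 0 and their highest values 199 and 391 CPM. Mean Sstr1 levels were 25.3 ± 70.5 CPM in ACP, 7.64 ± 26.5 CPM in ACV and 14.0 ± 56.4 CPM in Larynx neurons, 3.31-fold lower in ACV than in ACP (log2 ratio −1.73). Among neurons with at most 900 Apoe counts this log2 ratio of Sstr1 was −0.60, and it was −1.57 without the highest neuron of each type. For ACP over Larynx the log2 ratio of Sstr1 was 0.85. It turned to −0.26 among neurons with at most 900 Apoe counts and −0.22 among those with at least 500000 reads outside Rn45s.

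Sstr3, a receptor found on neuronal primary cilia, was detected in 3 of 53 ACP neurons (5.66%, 1.18 to 15.7), 15 of 98 ACV neurons (15.3%, 8.83 to 24.0) and 7 of 52 Larynx neurons (13.5%, 5.59 to 25.8). The 3 ACP neurons with Sstr3 held 110, 45.6 and 27.8 CPM. The highest ACV neuron held 429 CPM and gave 37.2% of the ACV sum, and 1 neuron gave 59.9% of the ACP sum and 1 gave 59.0% of the Larynx sum. Mean Sstr3 levels of 3.46 ± 16.6, 11.8 ± 49.9 and 3.88 ± 17.5 CPM in ACP, ACV and Larynx gave log2 ratios of 1.77 for ACV over ACP and 1.60 for ACV over Larynx. Without the highest neuron of each type these were 2.41 and 2.21, with pooled reads 1.14 and 1.17, and among neurons with at most 900 Apoe counts 2.69 and 2.45.

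Sstr4, which is encoded in a single exon, had few reads in each type. It was detected in 6 of 53 ACP neurons (11.3%, 4.27 to 23.0), 23 of 98 ACV neurons (23.5%, 15.5 to 33.1) and 7 of 52 Larynx neurons (13.5%, 5.59 to 25.8). Levels of Sstr4 reached 18.3, 54.7 and 68.8 CPM, with means of 0.662 ± 2.69, 3.07 ± 9.81 and 3.15 ± 12.3 CPM. The log2 ratio of Sstr4 was 2.21 for ACV over ACP, from 41 reads in ACP, and −0.04 for ACV over Larynx. Without the highest neuron of each type, which gave 52.3% of the ACP sum, these were 2.98 and 0.44, and the second was −0.68 with pooled reads, so its direction was not settled. The first was 3.66 among neurons with at most 900 Apoe counts. For Sstr3 and Sstr4 the intervals on the shares overlapped between all types.

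**Figure D1:**
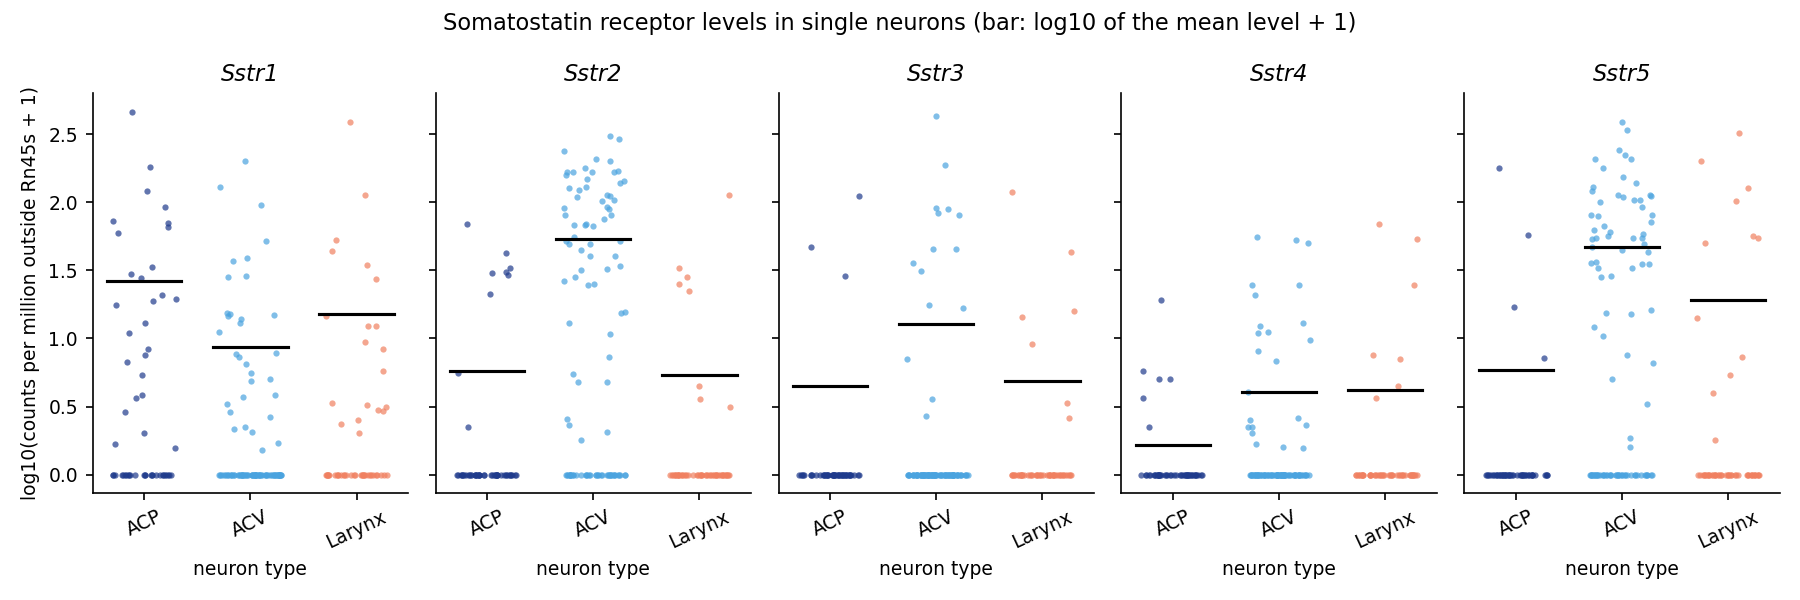
Level of each somatostatin receptor gene in each neuron, as log10 of counts per 1000000 reads outside Rn45s plus 1, by type (ACP, 53 neurons; ACV, 98; Larynx, 52). Points are neurons, spread sideways for display, and bars are the mean level put on the same scale; Sstr2 and Sstr5 form a band of ACV neurons with medians of 67.9 and 55.5 CPM among those with a read, above a row of neurons at 0.

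Between ACV and Larynx neurons, 10.4% of 13297 genes were at least 2-fold higher in ACV and 14.0% at least 2-fold lower, and Sstr2, Sstr3 and Sstr5 were among the higher genes. Between ACP and Larynx neurons, 10.3% of 13256 genes were at least 2-fold higher in ACP and 12.5% at least 2-fold lower, and Sstr4 (−2.25) and Sstr5 (−1.90) were among the lower genes. The Sstr4 ratio rests on 41 ACP and 191 Larynx reads, in 11.3% and 13.5% of neurons. A single Larynx neuron gave 41.9% of the summed Larynx level of Sstr4. Sstr5 passed the detection minimum through Larynx neurons alone, with reads in 7.55% of ACP and 23.1% of Larynx neurons. A single ACP neuron gave 69.2% of the summed ACP level of Sstr5. With Rn45s left in the library size the split of all genes changed from 1382 higher and 1858 lower to 3279 and 955 for ACV over Larynx, and from 1368 and 1653 to 3396 and 695 for ACP over Larynx. The median log2 ratio of all genes then moved from −0.02 to 0.52 and from −0.03 to 0.58.

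The order of the types for Sstr2 and Sstr5 between ACV and the others was kept at equal depth. Thinned to 250000 reads outside Rn45s, which leaves out 3 Larynx neurons, the expected share of neurons with Sstr2 was 15.2% in ACP, 57.1% in ACV and 13.9% in Larynx, and that with Sstr5 was 7.20%, 53.2% and 21.1%. For Sstr1 the thinned shares were 41.9%, 24.6% and 30.9%. In neurons with at most 900 Apoe counts (26 ACP, 44 ACV and 38 Larynx) Sstr2 was detected in 7.69%, 54.5% and 13.2%, and Sstr5 in 3.85%, 61.4% and 18.4%.

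**Figure D2:**
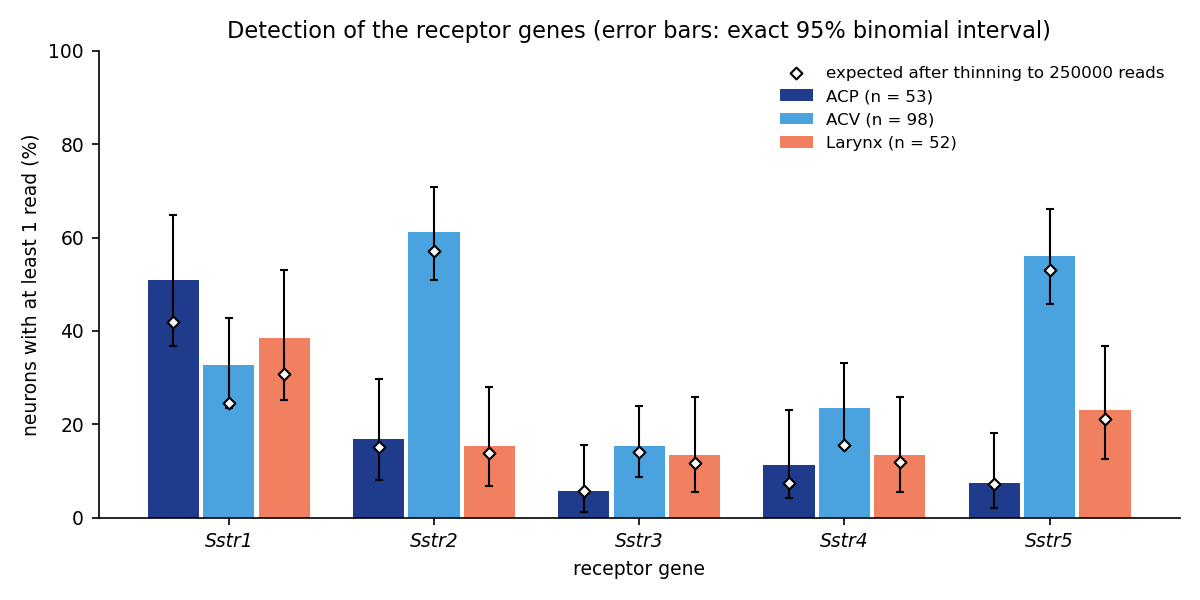
Share of neurons with at least 1 read of each receptor gene, in percent, by type, with exact 95% binomial intervals as error bars and the share expected at 250000 reads outside Rn45s as diamonds. The ACV bars of Sstr2 (61.2%) and Sstr5 (56.1%) are the highest for these genes, while the intervals of Sstr1, Sstr3 and Sstr4 overlap. The intervals cover counting error only, and no difference between types was tested.

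The 5 genes were compared with each other only per kilobase of their merged exons. In ACV neurons the order of mean level per kb was Sstr2 (24.6 ± 33.2 CPM per kb), Sstr5 (16.8 ± 26.7), Sstr1 (3.73 ± 12.9), Sstr3 (2.73 ± 11.5) and Sstr4 (2.15 ± 6.89). Sstr2 and Sstr5 together were the bulk of it, with 49.2% and 33.6% of the summed receptor level per kb. In ACP neurons Sstr1 led (12.3 ± 34.5 CPM per kb, 70.0% of the sum), followed by Sstr2 (2.24 ± 6.19), Sstr5 (1.77 ± 9.34), Sstr3 (0.801 ± 3.84) and Sstr4 (0.465 ± 1.89). In Larynx neurons Sstr1 (6.85 ± 27.6 CPM per kb) and Sstr5 (6.60 ± 20.6) came first, then Sstr4 (2.22 ± 8.60), Sstr2 (2.03 ± 7.89) and Sstr3 (0.897 ± 4.05). Each step in these orders was smaller than the larger SD of its pair. The genes were measured in the same neurons, and no difference between neighbours was tested. Per kb of coding length Sstr5 (16.6) stood above Sstr1 (11.9) in Larynx neurons, while Sstr2 in ACV and Sstr1 in ACP stayed first.

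Most neurons held at least 1 receptor. A read of any of the 5 genes was found in 88 of 98 ACV neurons (89.8%, 82.0 to 95), 34 of 53 ACP neurons (64.2%, 49.8 to 76.9) and 32 of 52 Larynx neurons (61.5%, 47.0 to 74.7). At least 2 receptor genes were detected in 66 ACV, 11 ACP and 16 Larynx neurons, and 1 ACV neuron had all 5. The receptor with the highest level per kb was Sstr2 in 44 ACV neurons, Sstr5 in 25 and Sstr1 in 10. It was Sstr1 in 20 ACP and 14 Larynx neurons, against Sstr2 in 6 and 4 and Sstr5 in 2 and 6.

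**Figure D3:**
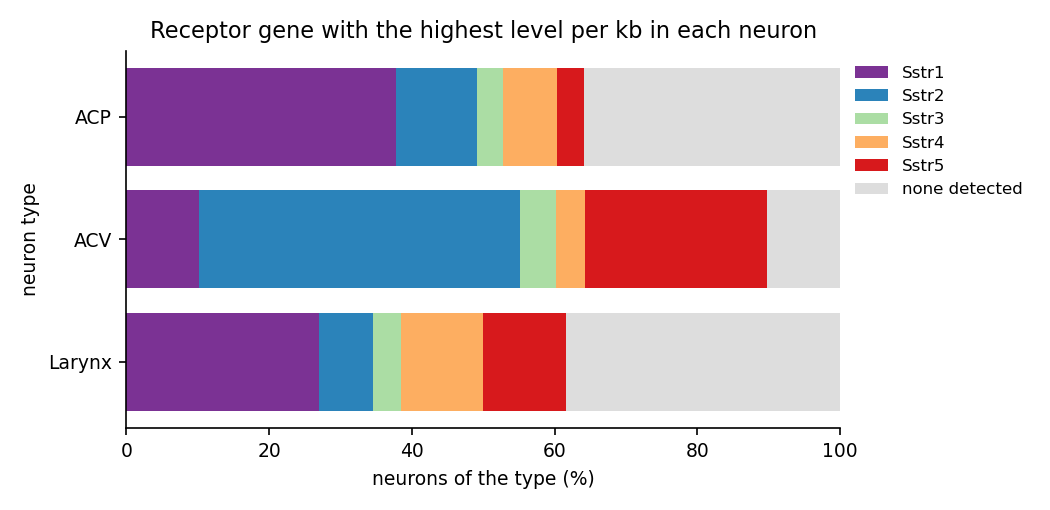
Receptor gene with the highest level per kb of exon in each neuron, as the percentage of the neurons of each type, with neurons without a read of any receptor in gray. Sstr2 (44 neurons) and Sstr5 (25) lead in most of the 98 ACV neurons, and Sstr1 leads in 20 of 53 ACP neurons.

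Sstr2 and Sstr5 were often found in the same ACV neuron. Both were detected in 39 of 98 ACV neurons (39.8%, 30.0 to 50.2), Sstr2 without Sstr5 in 21, Sstr5 without Sstr2 in 16, and neither in 22. The product of the separate shares is 34.4%, or 33.7 neurons. In ACP neurons both were detected in 1 of 53, and in Larynx neurons in 3 of 52. With at least 5 reads required of each gene, both were detected in 35.7% of ACV neurons.

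The share with both genes was also set beside the product among neurons of like depth. In the 49 ACV neurons above the median depth outside Rn45s, both genes were found in 29 (59.2%) where the product is 58.6%. In the 49 others they were found in 10 (20.4%) where the product is 16.5%. Summed over both groups of 49 the products come to 36.8 neurons beside the 39 observed. Detection of both genes moved with depth and with the number of genes detected: neurons with both had a median of 1365586 reads outside Rn45s and 8497 genes, those with Sstr2 only 979997 and 7795, those with Sstr5 only 1204109 and 7514, and those with neither 857015 and 5760. The part of depth in the neurons without either receptor was not tested.

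The other ACV receptor genes were set beside these classes. Ghsr was detected in 33 of 39 neurons with both receptors, 14 of 21 with Sstr2 only, 10 of 16 with Sstr5 only and 8 of 22 with neither. Htr3b was detected in 27, 9, 7 and 6 of these neurons, and Lepr, the leptin receptor, in 29, 14, 10 and 8. P2ry1, a purinergic receptor gene that overlaps an antisense gene, was detected in 28, 11, 13 and 9. Each of these 4 genes had its lowest share in neurons with neither receptor, and P2ry1 its highest in neurons with Sstr5 only. Neurons with neither receptor also had the lowest medians of reads outside Rn45s and of genes detected (5760, against 8497 with both). The part of depth in these shares was not tested. Slc18a3 and Chat were detected in every ACV neuron of all 4 classes. Sst was detected in 26, 14, 13 and 18 neurons, and was the gene of these with the larger share in neurons with neither receptor than in those with both.

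The balance of both receptors varied widely between the 39 ACV neurons that held them. Sstr2 was higher per kb in 27 and Sstr5 in 12, and the log2 ratio of Sstr2 over Sstr5 per kb ran from −7.48 to 5.26 with a median of 0.61. It was within 2-fold in 14 neurons and beyond 4-fold in 16. The median Sstr2 level was 67.1 CPM in neurons with both genes and 74.8 CPM in those with Sstr2 only, and the median Sstr5 level was 53.7 CPM in neurons with both and 66.4 CPM in those with Sstr5 only. Over the 98 ACV neurons, which differ in depth, Pearson's r between the log levels of Sstr2 and Sstr5 was 0.19, less than the r of either with the number of genes detected (0.40 for Sstr2 and 0.34 for Sstr5).

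**Figure D4:**
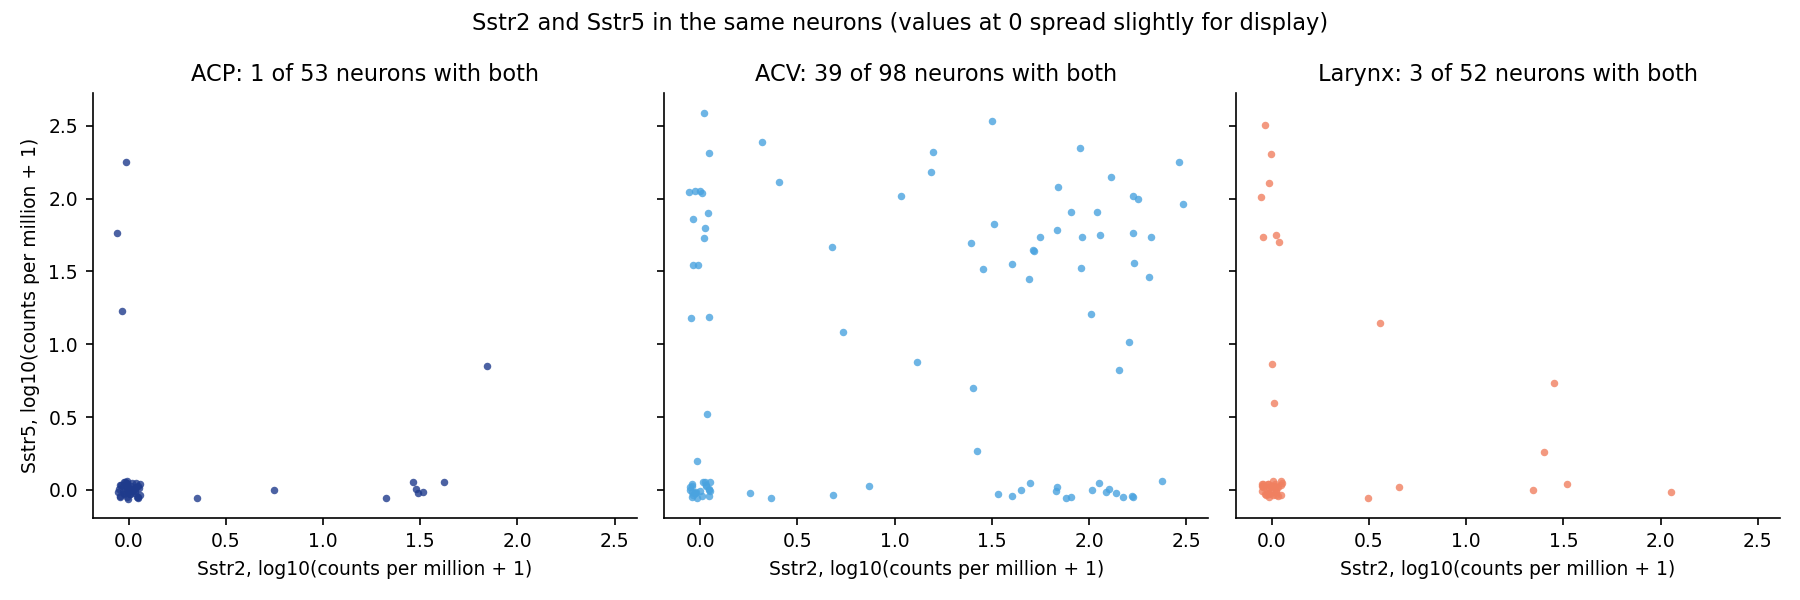
Sstr2 against Sstr5 in the neurons of each type, both as log10 of counts per 1000000 reads outside Rn45s plus 1, with points at 0 spread slightly for display. The ACV panel holds 39 of 98 neurons away from both axes, 21 along the Sstr2 axis and 16 along the Sstr5 axis, against 1 of 53 ACP and 3 of 52 Larynx neurons with both.

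Of the other pairs in ACV neurons, Sstr4 and Sstr5 were detected together in 19 neurons where the product is 12.9, so that 82.6% of the neurons with Sstr4 also held Sstr5. Sstr1 and Sstr5 were found together in 14 where the product is 18.0, and Sstr2 and Sstr3 in 5 where it is 9.18. All 4 ACP neurons with Sstr5 also held Sstr1. These are 4 of 30 pairs of gene and type, named after their values were seen.

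Reads of the ligand genes Sst and Cort were present in aspirated neurons of each type. Sst, which encodes somatostatin, was detected in 39 of 53 ACP neurons (73.6%, 59.7 to 84.7), 71 of 98 ACV neurons (72.4%, 62.5 to 81.0) and 41 of 52 Larynx neurons (78.8%, 65.3 to 88.9). Levels of Sst ran from 0 in each type to 949, 1578 and 1229 CPM, with medians of 6.95, 14.6 and 21.6 CPM and means of 46.4 ± 134, 84.9 ± 209 and 83.1 ± 187 CPM. The log2 ratio of Sst was 0.87 for ACV over ACP and 0.03 for ACV over Larynx. Cort, which encodes cortistatin, had reads in 1 ACP, 8 ACV and 3 Larynx neurons, with 62 of its 106 ACV reads in 1 neuron. Reads of Sst in an aspirated neuron can come from that neuron or from tissue taken up with it, and their source was not tested.

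Genes of somatostatin signaling, of peptide processing and of other Gi/o-coupled peptide receptors were mostly within 2-fold between ACV and ACP. Of 83 listed genes, 81 were in the table and 69 passed the detection minimum, of which 1 was at least 2-fold higher in ACV and 11 at least 2-fold lower, beside 8.63% higher and 9.87% lower over all genes compared. Their median log2 ratio was −0.19, beside 0.00 over all genes compared. None of the 5 Gi/o alpha genes, through which the receptors signal, was past 2-fold (median −0.28), and neither were the presynaptic calcium channel genes Cacna1a and Cacna1b (median −0.02).

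Adcy8, a calcium-stimulated adenylyl cyclase, was the gene higher in ACV. It was detected in 81.6% of ACV, 32.1% of ACP and 75.0% of Larynx neurons, with means of 66.9 ± 71.0, 10.7 ± 21.2 and 46.1 ± 59.0 CPM, so that its log2 ratio was 2.64 for ACV over ACP and 0.54 for ACV over Larynx. The other 7 adenylyl cyclases compared were within 2-fold between ACV and ACP. Among the GIRK channel genes, Kcnj3, a main neuronal subunit, was 3.92-fold lower in ACV than in ACP (means 5.38 ± 15.8 and 21.1 ± 33.8 CPM). Kcnj6 and Kcnj9 had log2 ratios of −0.06 and −0.91, and Kcnj5 had too few detections to compare. Of the 13 beta and gamma subunit genes compared, Gng12 alone was past 2-fold (−1.05).

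RGS proteins, which speed the return of Gi/o proteins to rest, included 3 genes lower in ACV of 12 compared. These were Rgs8 (log2 ratio −2.78, with reads in 69.8% of ACP and 21.4% of ACV neurons), Rgs5 (−2.37), which is also a pericyte marker, and Rgs6 (−2.01). Among 5 receptor kinases and arrestins compared, Grk5, a kinase that desensitizes receptors, was lower (−1.72). None of 6 phosphatases and scaffolds compared was past 2-fold.

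Of 7 genes for peptide processing and breakdown, Mme and Pcsk1 were lower in ACV. Mme, or neprilysin, a membrane peptidase that cleaves somatostatin, had means of 4.43 ± 13.9 CPM in ACP, 0.328 ± 2.00 CPM in ACV and 13.5 ± 24.2 CPM in Larynx neurons (log2 ratios −3.76 and −5.37 for ACV over ACP and over Larynx). Pcsk1, a prohormone convertase, had a log2 ratio of −1.28. Of 8 other Gi/o-coupled peptide receptors compared, 3 were lower in ACV and none higher. They were Oprm1, the mu opioid receptor (−2.94), Galr2, a galanin receptor (−1.52), and Mchr1, a receptor of melanin-concentrating hormone (−1.39). They had reads in 34.0%, 11.3% and 30.2% of ACP and 12.2%, 8.16% and 15.3% of ACV neurons. Mme and Galr2 passed the detection minimum between ACV and ACP through ACP neurons alone. Mme had reads in 22.6% of ACP, 6.12% of ACV and 44.2% of Larynx neurons. Galr2 had means of 4.27 ± 17.2 CPM in ACP and 1.49 ± 7.98 CPM in ACV. Exons of Cacna1a, Kcnj3, Kcnj6, Kcnj9, Gng12, Rgs6, Rgs8 and Oprm1 overlap a gene on the other strand. Reads of such a pair cannot be told apart where counting ignores strand.

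**Figure D5:**
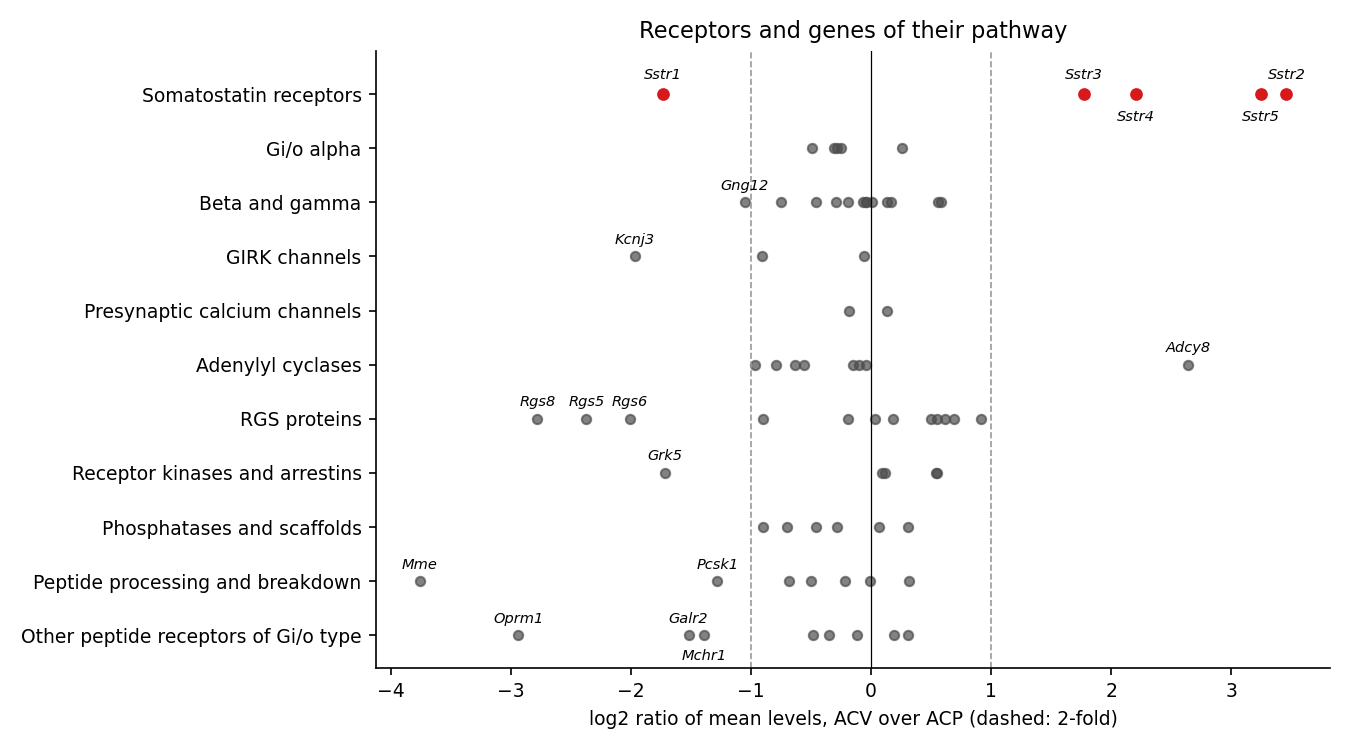
Log2 ratio of mean levels, ACV over ACP, for the 5 receptor genes (red) and for the genes of each pathway list that passed the detection minimum (gray), with dashed lines at 2-fold. Of the 69 pathway genes Adcy8 alone lies past the line on the ACV side and 11 lie past it on the ACP side, while 4 of 5 receptor genes lie on the ACV side. Sstr3 and Sstr5 passed the detection minimum through ACV neurons alone, and Mme and Galr2 through ACP neurons alone.

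Against Larynx neurons, 4 of 71 pathway genes were at least 2-fold higher in ACV and 18 at least 2-fold lower, beside 10.4% and 14.0% of all genes compared. With Rn45s left in the library size these became 16 and 11. For ACP over Larynx 8 were higher and 7 lower, beside 10.3% and 12.5% of all genes compared, and 19 and 3 with Rn45s left in.

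The genes whose log levels varied most like Sstr2 over all 203 neurons, of 12810 genes, were Hoxa5 (Pearson's r 0.53), Htr3b (0.48), Ghsr (0.46), Maob, which encodes monoamine oxidase B (0.45), and Hoxc5 (0.45). The share with a read was higher in ACV than in ACP neurons for each of these, 95.9% against 37.7% for Hoxa5. Those most like Sstr5 were Ano2, a calcium-activated chloride channel (0.49), Cd9, a tetraspanin (0.43), P2ry1 (0.42), Htr3b (0.41) and Myl1 (0.38). The points share their type and the depth of each neuron, and these values describe the table without a test.

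Within the 98 ACV neurons other genes came first. For Sstr2 these were Trappc13 (0.46), Vps37c (0.44), Gpr180 (0.43), Tmem106c (0.42) and Slc25a38 (0.42), of 12811 genes. For Sstr5 they were Mrap2, an accessory protein of melanocortin and ghrelin receptors (0.52), Gmcl1 (0.46), Daglb (0.46), Gba2 (0.45) and Hmces (0.45). Trappc13 and Slc25a38 had an r of 0.51 and 0.53 with the number of genes detected, above their r with Sstr2. Gpr180 and Tmem106c had 0.44 and 0.42, about equal to theirs, and Vps37c had 0.36, below its own. For Sstr5, Gba2 had 0.49, above its r with Sstr5, and Hmces had 0.45, about equal to its own. Mrap2, Gmcl1 and Daglb had 0.36, 0.37 and 0.22, below their r with Sstr5. Exons of Cd9, Daglb, Gba2 and Hmces overlap a gene on the other strand, and those of Hoxc5 overlap Hoxc10 on its own strand.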

How the data were processed

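The authors prepared Smart-seq2 libraries of single neurons, used Skewer to trim the reads and STAR (version 2.6.1d, per the labels) to align them to mm10, and deposited raw read counts per gene symbol. The counting program and annotation are not given in the sources used here. A deposited table named CPM was not used, since its columns sum to between 242376 and 3031764. Types were taken from the deposited annotation. No 2 neurons held identical counts.

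Counts were divided by the reads outside Rn45s and multiplied by 1000000. No test was run, since the labels name no mouse and each type is 1 sample. Detection was at least 1 read, and thinning gave the exact hypergeometric expectation. A ratio against a type with 0 reads used a floor of 3 reads over the reads of the type. The receptor genes, marker lists, pathway lists and the rule for the named genes were chosen with earlier results of these data known. Named genes were the receptors, Sst and Cort, up to 4 genes per pathway list past 2-fold between ACV and ACP, and the 5 genes with the highest Pearson's r of ln(level + 1) with Sstr2 and with Sstr5, over all neurons and over ACV neurons. 2 listed receptor kinase genes, Grk2 and Grk3, were not matched. Ratios and thinning were tested on simulated data. Alternatives were detection at 2 or 5 reads, thinning, other library sizes (edgeR's TMM and DESeq2 size factors included), pooled reads, other detection minimums and subsets of neurons. Python 3.11.15, numpy 2.4.6, pandas 2.3.3, scipy 1.17.1, R 4.3.3, edgeR 4.0.16 and DESeq2 1.42.0 were used.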

Additional observations from a re-analysis of the deposited data

How the results depend on the processing

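The sign of the Sstr2 and Sstr5 ratios of ACV over ACP and over Larynx was kept under all alternatives run, and the cause of each shift was not tested. For Sstr2 the log2 ratio of ACV over ACP (3.46) was 3.80 with pooled reads, 3.81 without the highest neuron of each type and 5.03 in neurons with at most 900 Apoe counts, and for Sstr5 (3.25) it was 3.53, 4.80 and 6.60. For ACV over Larynx, Sstr2 (3.60) was 4.33 with Rn45s in the library size, 4.50 without the highest neurons, 3.26 at low Apoe and 3.92 in neurons with at least 500000 reads outside Rn45s, and Sstr5 (1.35) was 2.02, 1.81, 1.86 and 1.49, and 1.63 with pooled reads. For ACP over Larynx, Sstr2 (0.14) was 0.82 with Rn45s, −0.28 pooled, 0.69 without the highest neurons, −1.76 at low Apoe and 0.51 in deep neurons, and Sstr5 (−1.90) was −1.39 with Rn45s, −2.99 without the highest neurons and −4.74 at low Apoe. At 5 reads the share with Sstr1 was 20.4% in ACV and 15.4% in Larynx neurons and that with Sstr4 13.3% in ACV. At low Apoe, 7.69% of ACP neurons had Sstr2, 3.85% Sstr4 and 0% both Sstr2 and Sstr5.

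Counts of genes past 2-fold moved with the detection minimum. With none they were 2910 higher and 2800 lower for ACV over ACP, 2780 and 3718 for ACV over Larynx and 2665 and 3478 for ACP over Larynx. At 25% they were 537 and 789 for ACV over ACP, 764 higher for ACV over Larynx, and 817 and 1016 for ACP over Larynx. With Rn45s in the library size they were 3279 and 955 for ACV over Larynx and 3396 and 695 for ACP over Larynx. Pathway genes higher in ACV than ACP were 5 without a minimum. Those higher in ACV than Larynx were 2 at 25%, and with Rn45s 16 were higher and 11 lower. For ACP over Larynx 19 and 3 were past 2-fold with Rn45s. The alternatives for Sstr1, Sstr3 and Sstr4 ratios and for pathway counts, the split of ACV neurons by depth and the coding length were chosen after seeing the data. TMM and DESeq2 size factors moved 0 of 54 values beyond these limits. No paired analysis was possible because each type is 1 sample and neurons carry no shared replicate number.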
